A study of Homo sapiens with 10 samples.

Results

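The integrin and laminin subunits are the genes whose whole symbol is ITGA or ITGB followed by a number or by one of the letters L, M, E, V, X and D (ITGA2B included), or LAMA, LAMB or LAMC followed by a number. Of the 52402 gene symbols in the count tables, 38 met this rule and 37 are described here, of which 28 held at least 10 counts in at least 2 of the 10 libraries. These 28 members, 19 integrin subunits and 9 laminin chains, were all among the 14884 genes tested. The other 9 were ITGA2B, ITGA8, ITGAD, ITGAL, ITGAM, ITGB2, ITGB7, LAMB4 and LAMC3, and their highest count in any library was 10, in ITGB7. The values come from mRNA-sequencing of BEAS2B, an established human bronchial epithelial cell line, with 2 libraries in each of 5 groups. The groups were cells transfected with a scrambled miRNA control (miRcontrol), with a miR-3124-5p mimic (miR3124_mimic), with a miR-200b-3p mimic (miR200b_mimic), with an inhibitor of miR-92b (miR92b_inhibitor), or with the 3 agents together (the 3-miRNA mixed group, called the mixed group here). Each mimic, inhibitor or control was used at 50 nM by lipofection and RNA was taken after 48 h, while the amounts in the mixed group were not stated. All groups, miRcontrol included, thus carry a transfected small RNA, and all come from 1 cell line. The question was how each miRNA agent, alone or together, changed the expression of genes in these cells.

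Integrins are cell surface receptors made of 1 alpha and 1 beta subunit, which bind the extracellular matrix outside the cell and the cytoskeleton inside it. The alpha and beta pair sets the ligand, such as fibronectin and other proteins with the RGD motif, collagens or laminins. Laminins are secreted trimers of 1 alpha, 1 beta and 1 gamma chain and a main component of basement membranes, the sheet on which airway epithelium rests. Laminin-332, which holds the LAMA3 and LAMB3 products, is bound by the integrins alpha3 beta1 and alpha6 beta4, and the latter anchors epithelial cells in hemidesmosomes.

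The miRNAs are shown first, since their seeds set the words that can be looked for in the members. A mimic adds a miRNA, which pairs through its seed (bases 2 to 8) with messenger RNAs and lowers them, and an inhibitor blocks it. The mature sequences below are those of RefSeq on GRCh38.p14, written 5′ to 3′ with the seed in capitals. The labels and the study's methods do not name the arm of miR-92b that the inhibitor blocks, so both are given.
miR-3124-5p: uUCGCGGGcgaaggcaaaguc
miR-200b-3p: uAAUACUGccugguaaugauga
miR-92b-5p: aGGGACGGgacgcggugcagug
miR-92b-3p: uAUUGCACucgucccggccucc

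The DNA word complementary to each seed was searched on the coding strand in 1 3′UTR per gene, that of the transcript with the longest coding sequence (GENCODE v29, GRCh38). A 3′UTR was available for 27 of the 28 members, since that transcript of ITGA6 gave none, and for 12119 of the tested genes. CAGTATT, the word for miR-200b-3p, was in 7 of the 27 members (25.9%) and in 17.13% of the tested genes. GTGCAAT, the word for miR-92b-3p, was in 6 of 27 (22.2%) and in 10.97% of the tested genes. CCCGCGA (miR-3124-5p) and CCGTCCC (miR-92b-5p) were in 0 of the 27, and in 0.49% and 3.6% of the tested genes. The 7 members with CAGTATT were ITGA1, ITGA2, ITGA9, ITGA10, ITGA11, ITGB3 and LAMC1, and the 6 with GTGCAAT were ITGA5, ITGA9, ITGAV, ITGB3, ITGB6 and ITGB8. The CAGTATT sites of 3 well-covered members are shown with the word in capitals, as 30 bases of the plus strand, because these members moved in different directions with the miR-200b-3p mimic (values below).
ITGB3 (chr17:47310271-47310300): tttacagaggaCAGTATTtgtggggaggga
LAMC1, first site (chr1:183143943-183143972): atacttgcactCAGTATTtcacacagctgc
LAMC1, second site (chr1:183145538-183145567): tttaagaaaaaCAGTATTttatttataata
ITGA2 (chr5:53093583-53093612): ctcctggggggCAGTATTtctcaagcactt

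The libraries held between 13587666 and 18503890 counts. Levels are normalized CPM, which scale each count by the library's total and its RLE factor from edgeR, and these factors lay between 0.985 and 1.02. Genes were called at an adjusted p under 0.05 in edgeR's quasi-likelihood test (Benjamini-Hochberg over the 14884 genes), with all 10 libraries in one fit, and differences between groups are log2 fold changes ± SE of the fit. With 2 libraries per group and no statement that they were separate transfections, the p-values measure the spread between these libraries, which may be technical. In each group the counts of the 2 libraries differed by more than counting error (chi-square per degree of freedom between 1.75 and 2.63). None was thus counted as a copy of another, but this does not show that they were separate transfections. The 4 comparisons with miRcontrol share its 2 libraries.

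The label of a bronchial epithelial line was checked against marker genes. KRT8, a simple epithelial keratin, was at 814 and 814 normalized CPM in miRcontrol, 1135 and 1151 with miR3124_mimic, 1328 and 1365 with miR200b_mimic, 818 and 795 with miR92b_inhibitor and 1387 and 1357 in the mixed group. Its partner KRT18 was at 619 and 638 normalized CPM in miRcontrol, 808 and 803 with miR3124_mimic, 1306 and 1311 with miR200b_mimic, 634 and 601 with miR92b_inhibitor and 1246 and 1269 in the mixed group. KRT19, a further simple keratin, was at 8.47 and 7.94 normalized CPM in miRcontrol, 0.615 and 0.905 with miR3124_mimic, 13.8 and 15.1 with miR200b_mimic, 5.54 and 4.71 with miR92b_inhibitor and 2.49 and 2.74 in the mixed group. It was thus highest in miR200b_mimic and below miRcontrol in the other groups, while KRT8 and KRT18 were above miRcontrol with both mimics and in the mixed group. Of the 12 epithelial markers, 6 held at most 3 counts in every library (KRT14, TP63, SCGB1A1, FOXJ1, MUC5AC and MUC5B, genes of basal, secretory and ciliated airway cells), and SCGB1A1 and MUC5AC held 0. CDH1, which encodes E-cadherin, was at 0.172 and 0.119 normalized CPM in miRcontrol, 0.205 and 0.396 with miR3124_mimic, 10.9 and 9.03 with miR200b_mimic, 0.0584 and 0.0547 with miR92b_inhibitor and 2.54 and 1.94 in the mixed group. VIM, the mesenchymal intermediate filament vimentin and in miRcontrol the most abundant of the 7 mesenchymal markers, was at 3894 and 3707 normalized CPM in miRcontrol, 827 and 799 with miR3124_mimic, 2972 and 2992 with miR200b_mimic, 4247 and 4232 with miR92b_inhibitor and 2684 and 2775 in the mixed group. KRT8, KRT18 and vimentin were thus all abundant, while markers of differentiated airway cells were near 0. The summed CPM of the epithelial list was 1443 and 1459.7 in miRcontrol, 1944 and 1956 with miR3124_mimic, 2669 and 2709.5 with miR200b_mimic, 1457 and 1400.1 with miR92b_inhibitor and 2644 and 2637 in the mixed group. That of the mesenchymal list was 8059 and 8041 in miRcontrol, 6129 and 5987 with miR3124_mimic, 5788 and 5694 with miR200b_mimic, 7679 and 7534 with miR92b_inhibitor and 6096 and 6112 in the mixed group, most of it VIM and FN1. The list did not move as one. SPARC, a collagen-binding matrix protein, was at 649 and 653 normalized CPM in miRcontrol, 1540.1 and 1522 with miR3124_mimic, 1089.9 and 1051 with miR200b_mimic, 632 and 629.7 with miR92b_inhibitor and 1097 and 1093 in the mixed group. COL1A1, a fibrillar collagen, rose by 0.99 ± 0.10 on the log2 scale with miR3124_mimic, 1.62 ± 0.10 with miR200b_mimic and 0.87 ± 0.10 in the mixed group. Both were thus above miRcontrol in groups where the summed list was below it. ZEB1, a repressor of epithelial genes, was at 63.3 and 62.9 normalized CPM in miRcontrol, 59.4 and 56.4 with miR3124_mimic, 25.9 and 25.6 with miR200b_mimic, 70.7 and 74.7 with miR92b_inhibitor and 29.7 and 28.5 in the mixed group. Several of these markers moved in the same groups as members described below, and their part in those results was not tested. In bulk RNA a change in the share of cells of one kind and a change of RNA per cell cannot be told apart.

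In miRcontrol, levels per kb of exonic length spread over a wide range, shown in the plot of levels in the control libraries. ITGB1, the beta subunit shared by most matrix-binding integrins, was the highest, at 227 and 211 CPM per kb in the 2 libraries. The laminin-binding alpha subunits ITGA3 (66.9 and 66.5 CPM per kb) and ITGA6 (58.6 and 56.2) followed. Of the laminin chains described here, LAMC1 (46.9 and 49.1) and LAMB1 (46.2 and 46.9) were the most abundant and overlapped each other, and LAMB3 was next at 25.2 and 26.1. LAMA3 was the most abundant laminin alpha chain, at 7.13 and 6.74 CPM per kb, and LAMA5 was at 3.90 and 4.46. ITGB4 was at 8.31 and 8.40 and ITGB3 at 9.22 and 7.97, and these overlapped. ITGA5 (29.2 and 29.9), ITGB5 (25.0 and 24.8), ITGAV (19.4 and 19.1), LAMB2 (17.7 and 18.7) and ITGA2 (10.9 and 10.1) lay between these. ITGB8 (2.84 and 2.64), ITGA7 (2.17 and 2.47), LAMA4 (1.33 and 1.47), ITGAE (1.26 and 1.36) and ITGA1 (0.388 and 0.350) were lower. Of these, LAMA4 and ITGAE overlapped. ITGA4, ITGA11, ITGA10, LAMA1, LAMA2, ITGA9 and ITGAX were all under 0.17 CPM per kb in both libraries, and the first 4 of these overlapped. ITGA9 and ITGAX had no count in 1 of the libraries, and ITGB6 had none in either.

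**Figure D1:**
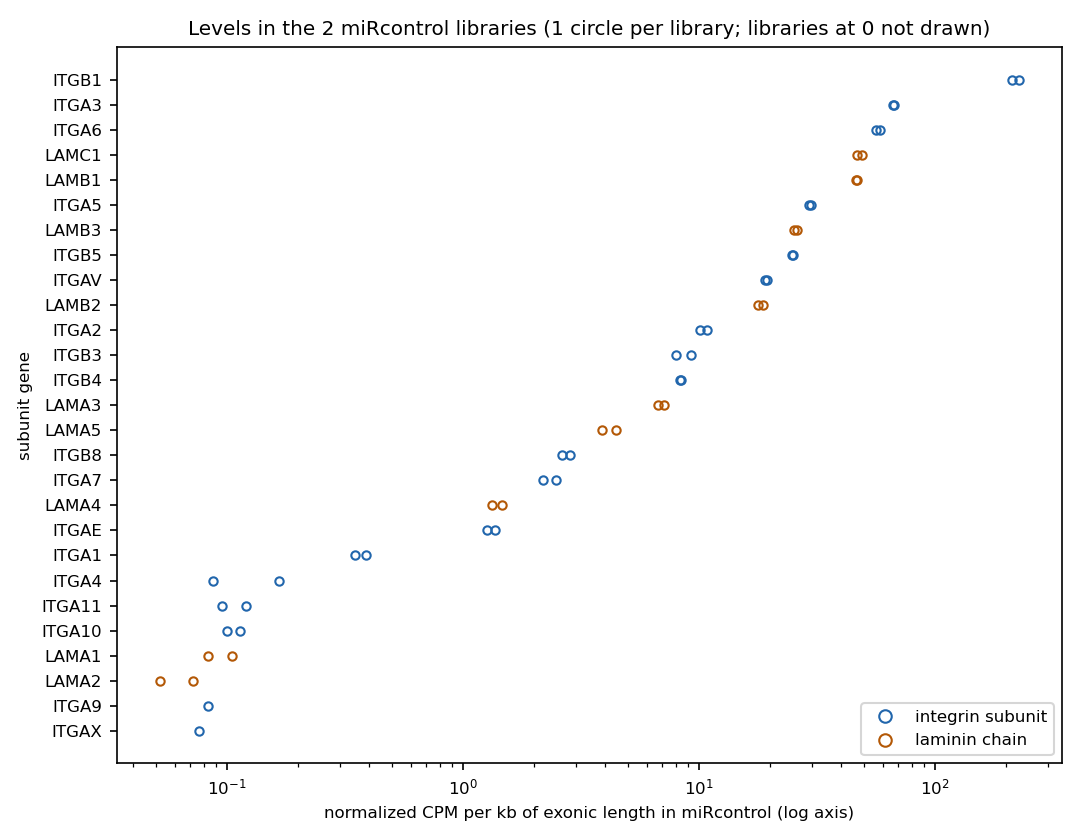
Levels of 27 members in the 2 miRcontrol libraries, as normalized CPM per kb of exonic length on a log axis, with 1 circle per library. ITGB1 stands highest at 227 and 211, and ITGB6, at 0 in both libraries, is not drawn.

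With the miR-3124-5p mimic most of the members rose. Of the 28, 20 were called higher (25.7% of all genes tested were) and 1, LAMB3, lower (25.3% of all genes), and 8 passed a fold change of 2 (8.13% of all genes). The median log2 fold change was 0.65 over the members (0.61 without ITGB6, which was at or under 3 counts in all 4 libraries compared) and 0.00 over all genes. The miR-200b-3p mimic gave 11 members higher (21.4% of all genes) and 6 lower (19.1%), with 6 past a fold change of 2 (4.88%) and a median of -0.02 against -0.01 over all genes. The miR-92b inhibitor gave the reverse balance, with 5 members higher (17.5% of all genes) and 12 lower (18.2%), 2 past a fold change of 2 (1.91%) and a median of -0.11 (-0.16 without ITGB6) against -0.01. In the mixed group 13 members were higher (21.5% of all genes) and 5 lower (21.1%), with 7 past a fold change of 2 (4.67%) and a median of 0.37 against 0.00. The 5 lower were 3 with DESeq2 on all libraries. Leaving out miRcontrol replicate 1, mixed replicate 1 or mixed replicate 2 also lowered this count, so that it depends on the test and on single libraries. The log2 fold changes of all members are set side by side in the heat map. All reported members passed the filter on low counts, but ITGA9, ITGAX, ITGA4 and ITGB6 held 10 or more counts in both libraries of only 1 or 2 groups, so they entered through the groups where they were high, and the counts above hold them.

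**Figure D2:**
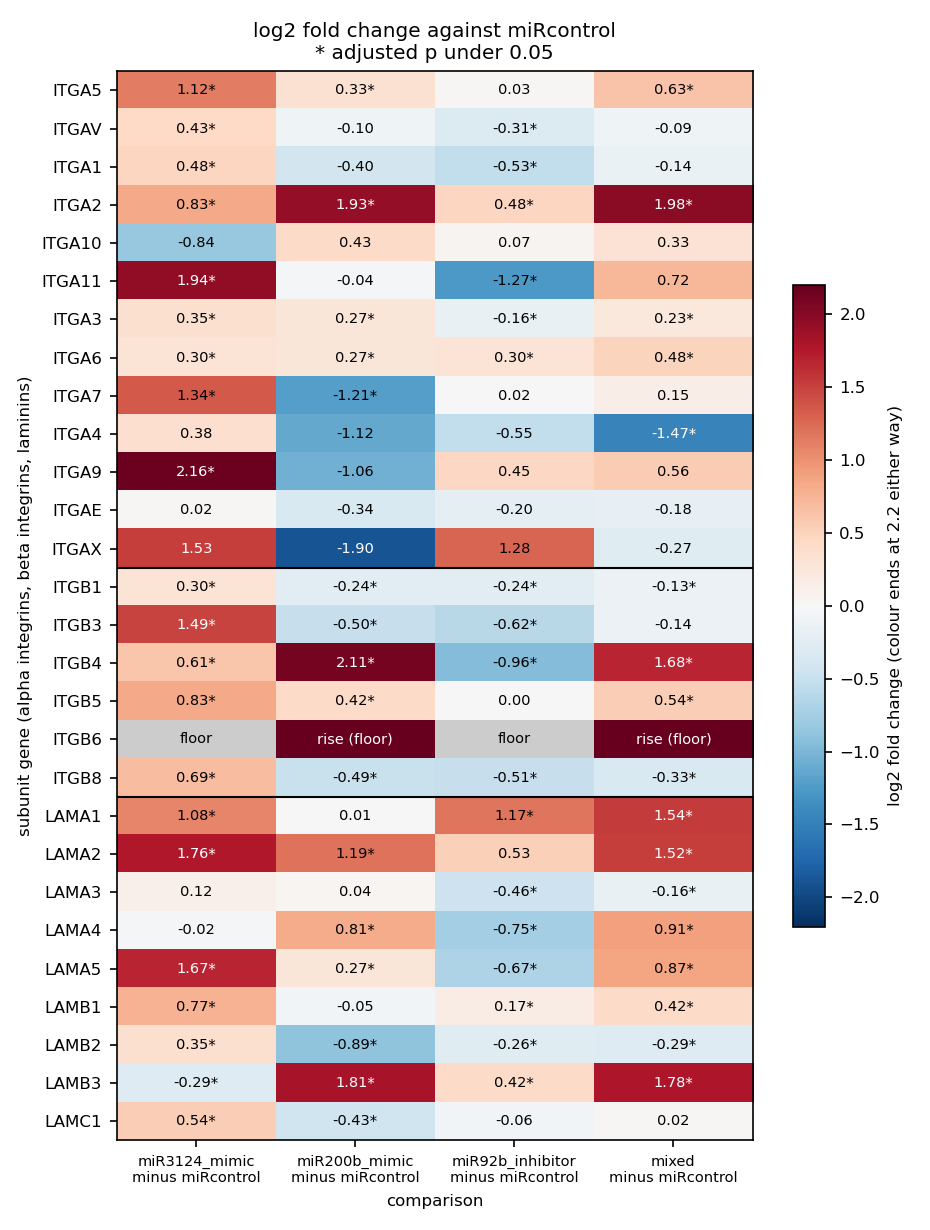
Heat map of the log2 fold change of the 28 members against miRcontrol in the other 4 groups, with an asterisk where the adjusted p was under 0.05. LAMB3, ITGA2 and ITGB4 are strongly red with the miR-200b-3p mimic and in the mixed group, LAMA5, ITGB3 and ITGA11 with the miR-3124-5p mimic. For ITGB6 no value is written, since its control libraries held 0 counts.

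Of the laminin-332 chains described here, LAMB3 rose with the miR-200b-3p mimic and in the mixed group while LAMA3 did not. LAMB3 (beta3, chr1:209614870-209652466 on GRCh38) was at 118 and 122 normalized CPM in miRcontrol, 103 and 94.8 with miR3124_mimic, 403 and 438 with miR200b_mimic, 155 and 167 with miR92b_inhibitor and 413 and 416 in the mixed group. The miR200b_mimic and mixed libraries were the highest and overlapped each other, the miR3124_mimic libraries were the lowest, and no group overlapped miRcontrol. LAMB3 rose 3.50-fold in miR200b_mimic, a log2 fold change of 1.81 ± 0.04 (adjusted p = 8.53e-34), and 3.44-fold in the mixed group, 1.78 ± 0.04 (adjusted p = 1.91e-33). In miR92b_inhibitor the log2 fold change of LAMB3 was 0.42 ± 0.05 (adjusted p = 5.14e-10) and in miR3124_mimic it was -0.29 ± 0.05 (adjusted p = 3.47e-06). LAMA3 (alpha3, chr18:23689443-23956222), the most abundant laminin alpha chain per length in miRcontrol, was at 105 and 98.9 normalized CPM in miRcontrol, 109 and 111 with miR3124_mimic, 98.0 and 111 with miR200b_mimic, 71.8 and 75.9 with miR92b_inhibitor and 90.2 and 92.2 in the mixed group. The miR200b_mimic libraries overlapped those of miRcontrol and the miR92b_inhibitor libraries were the lowest. LAMA3 fell in miR92b_inhibitor, with a log2 fold change of -0.46 ± 0.05 (adjusted p = 1.32e-09), and slightly in the mixed group, -0.16 ± 0.05 (adjusted p = 0.0105). The mixed call was lost with DESeq2 on all libraries (log2 -0.16, adjusted p = 0.0502). It was also lost without mixed replicate 1 (log2 -0.14) or miRcontrol replicate 1 (-0.12). In miR3124_mimic and miR200b_mimic its log2 fold changes were 0.12 ± 0.05 (adjusted p = 0.0565) and 0.04 ± 0.05 (adjusted p = 0.534).

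The chains of laminin-511 and laminin-521, the widespread basement membrane laminins (LAMA5 with LAMB1 or LAMB2, and LAMC1), rose together with the miR-3124-5p mimic. LAMA5 (chr20:62307955-62367312) was at 55.7 and 63.7 normalized CPM in miRcontrol, 188 and 191 with miR3124_mimic, 66.1 and 77.1 with miR200b_mimic, 39.3 and 35.5 with miR92b_inhibitor and 116 and 103 in the mixed group. The miR3124_mimic libraries were the highest and the miR92b_inhibitor libraries the lowest, and no group overlapped miRcontrol. LAMA5 rose 3.18-fold in miR3124_mimic, a log2 fold change of 1.67 ± 0.06 (adjusted p = 6.18e-28), and 1.83-fold in the mixed group, 0.87 ± 0.06 (adjusted p = 1.58e-16). It fell in miR92b_inhibitor, with -0.67 ± 0.07 (adjusted p = 1.74e-10). Its rise in miR200b_mimic, 0.27 ± 0.07 (adjusted p = 7.19e-04), lost its call with DESeq2 on all libraries (log2 0.26, adjusted p = 0.0663). The call was also lost without miRcontrol replicate 1 (log2 0.18) or miR200b_mimic replicate 2 (0.15). LAMB1 (chr7:107923799-108003255), the most abundant laminin beta chain per length in miRcontrol, was at 376 and 382 normalized CPM in miRcontrol, 644 and 648 with miR3124_mimic, 369 and 362 with miR200b_mimic, 432 and 422 with miR92b_inhibitor and 502 and 509 in the mixed group. Its log2 fold change was 0.77 ± 0.03 (adjusted p = 9.61e-24) in miR3124_mimic, 0.42 ± 0.03 (adjusted p = 6.38e-14) in the mixed group and 0.17 ± 0.04 (adjusted p = 1.30e-04) in miR92b_inhibitor, and in these 3 groups both libraries lay above miRcontrol. In miR200b_mimic the log2 fold change of LAMB1 was -0.05 ± 0.04 (adjusted p = 0.243), which was not called. LAMC1 (chr1:183023460-183145592), the more abundant in miRcontrol of the gamma chains described here, was at 394 and 413 normalized CPM in miRcontrol, 594 and 581 with miR3124_mimic, 304 and 294 with miR200b_mimic, 391 and 384 with miR92b_inhibitor and 411 and 409.7 in the mixed group. It was highest in miR3124_mimic and lowest in miR200b_mimic, and the mixed libraries lay within the range of miRcontrol. The log2 fold change of LAMC1 was 0.54 ± 0.04 (adjusted p = 8.53e-18) in miR3124_mimic and -0.43 ± 0.04 (adjusted p = 1.09e-13) in miR200b_mimic, and 0.02 ± 0.04 (adjusted p = 0.622) in the mixed group. LAMB2 (beta2) showed the same pair of opposite changes, with 0.35 ± 0.05 (adjusted p = 1.10e-08) in miR3124_mimic and -0.89 ± 0.05 (adjusted p = 3.17e-19) in miR200b_mimic, and it fell also in miR92b_inhibitor (-0.26) and in the mixed group (-0.29).

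The remaining laminin alpha chains were low. LAMA1, a chain of early embryonic basement membranes, held 29 and 22 counts in miRcontrol and was at 1.66 and 1.31 normalized CPM in miRcontrol, 2.87 and 3.39 with miR3124_mimic, 1.57 and 1.44 with miR200b_mimic, 3.50 and 3.23 with miR92b_inhibitor and 4.42 and 4.25 in the mixed group. Its libraries in miR3124_mimic, miR92b_inhibitor and the mixed group lay above all control libraries, and those of miR200b_mimic overlapped them. LAMA1 rose by 1.54 ± 0.25 (adjusted p = 1.41e-06) on the log2 scale in the mixed group, 1.17 ± 0.26 (adjusted p = 3.38e-04) in miR92b_inhibitor and 1.08 ± 0.27 (adjusted p = 6.84e-04) in miR3124_mimic. An antisense gene, AP002409.1, covers 10.34% of its exonic length, and the use of strand in counting was not stated. LAMA2, the alpha chain of muscle laminin, was at 0.744 and 0.537 normalized CPM in miRcontrol, 1.91 and 2.43 with miR3124_mimic, 1.79 and 1.21 with miR200b_mimic, 0.817 and 1.04 with miR92b_inhibitor and 1.71 and 1.99 in the mixed group. All groups lay above miRcontrol, the miR92b_inhibitor libraries by the least. LAMA2 rose by 1.76 ± 0.38 (adjusted p = 1.23e-04) in miR3124_mimic, 1.52 ± 0.39 (adjusted p = 0.00111) in the mixed group and 1.19 ± 0.41 (adjusted p = 0.0179) in miR200b_mimic. The last call rested on few counts and was lost with DESeq2 on all libraries (log2 1.21, adjusted p = 0.0630). It was also lost without miRcontrol replicate 2 (log2 0.98) or miR200b_mimic replicate 1 (0.91). LAMA4, a chain of vascular and stromal laminins, was at 15.4 and 17.0 CPM in miRcontrol, 25.4 and 31.1 in miR200b_mimic and 30.3 and 30.5 in the mixed group, and at 11.8 and 7.50 in miR92b_inhibitor. It rose in the first pair (0.81 ± 0.11 and 0.91 ± 0.11), fell with the inhibitor (-0.75 ± 0.13), and was -0.02 ± 0.12 in miR3124_mimic.

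**Figure D3:**
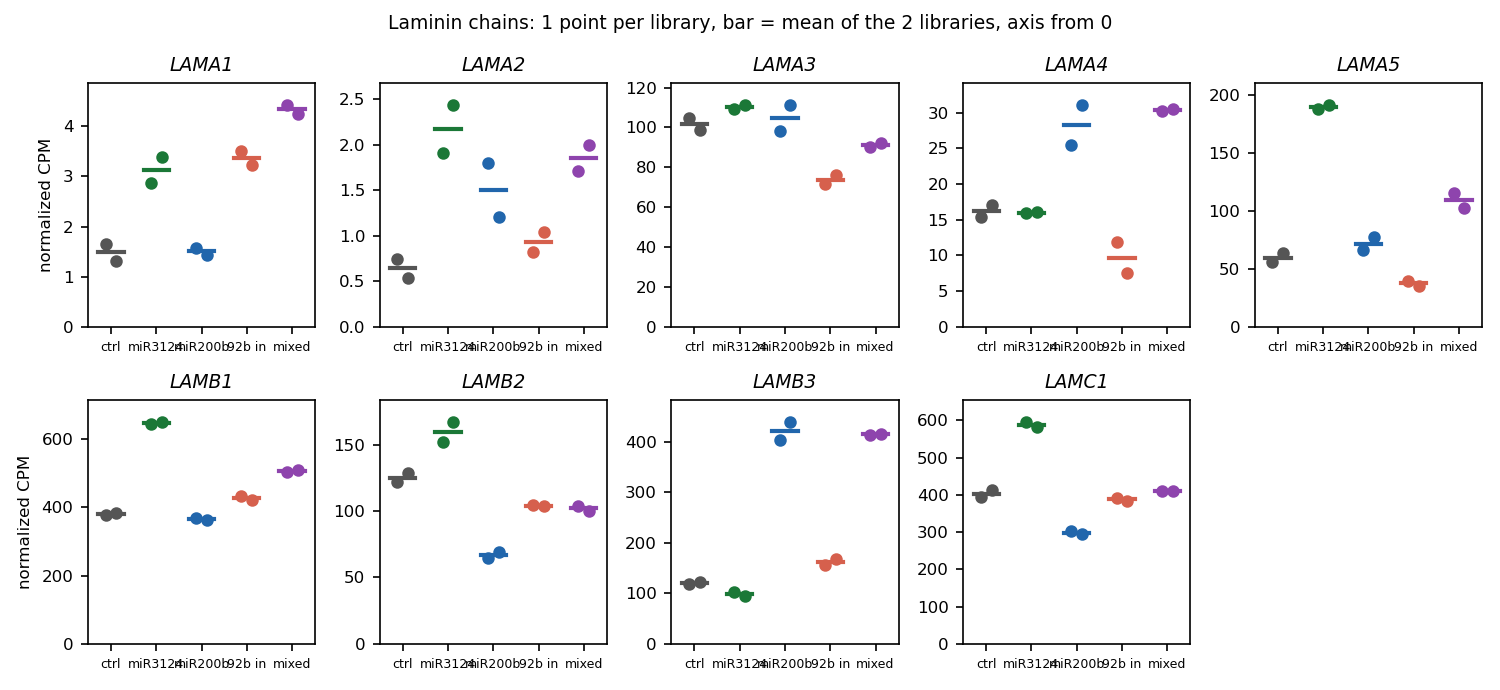
Normalized CPM of the 9 laminin chains in each library, with 1 point per library, a bar at the mean of each group and each axis from 0; ctrl is miRcontrol, miR3124 and miR200b are the mimics and 92b in is the miR-92b inhibitor. LAMB3 stands highest in miR200b_mimic and the mixed group, and LAMA5, LAMB1, LAMB2 and LAMC1 in miR3124_mimic.

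Among the integrins that bind laminin, ITGB4 changed the most, with the miR-200b-3p mimic. ITGB4 (chr17:75721328-75757818), which pairs with alpha6 in hemidesmosomes, was at 56.2 and 56.8 normalized CPM in miRcontrol, 84.4 and 87.6 with miR3124_mimic, 240.3 and 246 with miR200b_mimic, 31.6 and 26.6 with miR92b_inhibitor and 189 and 173 in the mixed group. The miR200b_mimic libraries were the highest, then those of the mixed group and of miR3124_mimic, while the miR92b_inhibitor libraries lay below miRcontrol, and none overlapped. ITGB4 rose 4.31-fold in miR200b_mimic, a log2 fold change of 2.11 ± 0.05 (adjusted p = 8.53e-34). It rose 3.20-fold in the mixed group, 1.68 ± 0.05 (adjusted p = 1.33e-29), and by 0.61 ± 0.06 (adjusted p = 1.30e-12) on the log2 scale in miR3124_mimic. In miR92b_inhibitor it changed by -0.96 ± 0.07 (adjusted p = 7.10e-16). Its partner ITGA6 was at 383 and 367 normalized CPM in miRcontrol, 457 and 464 with miR3124_mimic, 447 and 458 with miR200b_mimic, 455 and 466 with miR92b_inhibitor and 516 and 533 in the mixed group, and every library of the other 4 groups lay above both control libraries. The changes of ITGA6 were smaller than those of ITGB4, with 0.30 ± 0.04 (adjusted p = 1.61e-09) for miR3124_mimic, 0.27 ± 0.04 (adjusted p = 2.49e-08) for miR200b_mimic and 0.30 ± 0.04 (adjusted p = 6.04e-09) for miR92b_inhibitor. In the mixed group the log2 fold change of ITGA6 was 0.48 ± 0.04 (adjusted p = 9.58e-16). ITGA3, the partner of beta1 in the other laminin-332 receptor and the most abundant alpha subunit per length in miRcontrol, was at 656 and 652 normalized CPM in miRcontrol, 838 and 830.4 with miR3124_mimic, 768 and 808 with miR200b_mimic, 583 and 587 with miR92b_inhibitor and 772 and 762 in the mixed group. It rose in both mimic groups and the mixed group and lay below miRcontrol in both miR92b_inhibitor libraries. The log2 fold changes of ITGA3 were 0.35 ± 0.03 (adjusted p = 2.35e-12) in miR3124_mimic, 0.27 ± 0.03 (adjusted p = 5.86e-09) in miR200b_mimic, 0.23 ± 0.03 (adjusted p = 1.88e-07) in the mixed group and -0.16 ± 0.03 (adjusted p = 1.93e-04) in miR92b_inhibitor. ITGA7, the laminin-binding alpha subunit known from muscle, was at 13.9 and 15.8 normalized CPM in miRcontrol, 39.3 and 35.9 with miR3124_mimic, 6.13 and 6.62 with miR200b_mimic, 14.2 and 15.7 with miR92b_inhibitor and 16.2 and 16.7 in the mixed group. The mimics moved it apart, to the highest libraries in miR3124_mimic and the lowest in miR200b_mimic, while the miR92b_inhibitor libraries overlapped miRcontrol. ITGA7 changed by 1.34 ± 0.09 (adjusted p = 5.00e-17) in miR3124_mimic and by -1.21 ± 0.13 (adjusted p = 5.67e-11) in miR200b_mimic, and by 0.15 ± 0.10 (adjusted p = 0.243) in the mixed group.

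Of 6 genes for laminin-332 and its receptors (LAMA3, LAMB3, ITGA3, ITGA6, ITGB1 and ITGB4), 4 rose (21.4% of all genes) and ITGB1 fell (19.1%) in miR200b_mimic, and LAMB3 and ITGB4 passed a fold change of 2. In the mixed group 4 rose (21.5% of all genes) and LAMA3 and ITGB1 fell (21.1%), with a median log2 fold change of 0.36 beside 0.00 over all genes. Both of these falls lost their call when 1 of certain libraries was left out (values beside each gene). In miR3124_mimic 4 rose (25.7% of all genes) and LAMB3 fell (25.3%), with a median of 0.30. In miR92b_inhibitor 2 rose (17.5%) and 4 fell (18.2%), with a median of -0.20, and in miR200b_mimic the median was 0.27. EPCAM, an epithelial adhesion gene, was at 0.458 and 0.119 normalized CPM in miRcontrol, 0.410 and 0.339 with miR3124_mimic, 10.2 and 10.1 with miR200b_mimic, 0.175 and 0.109 with miR92b_inhibitor and 5.70 and 5.27 in the mixed group. EPCAM and CDH1 (values above) were thus highest in miR200b_mimic and the mixed group, where LAMB3 and ITGB4 were also highest. KRT19, another keratin of the epithelial list, did not follow them in the mixed group, where it was below miRcontrol (values above). The part of these markers in the rise of LAMB3 and ITGB4 was not tested.

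Of the fibronectin and RGD receptors, ITGA5, ITGB3, ITGB5 and ITGB8 rose with the miR-3124-5p mimic, and ITGB6, with no counts in miRcontrol, was counted with the miR-200b-3p mimic and in the mixed group. ITGA5, the alpha subunit of the main fibronectin receptor, was at 221 and 226 normalized CPM in miRcontrol, 487 and 485 with miR3124_mimic, 272 and 292 with miR200b_mimic, 231 and 227 with miR92b_inhibitor and 350.2 and 341 in the mixed group. It rose 2.17-fold in miR3124_mimic, a log2 fold change of 1.12 ± 0.04 (adjusted p = 1.75e-28), and also in the mixed group (0.63 ± 0.04, adjusted p = 1.30e-18) and in miR200b_mimic (0.33 ± 0.04, adjusted p = 1.06e-09). The miR92b_inhibitor libraries lay just above those of miRcontrol, with 0.03 ± 0.04 (adjusted p = 0.572). ITGB3 (chr17:47253846-47311816), which pairs with alphaV, was at 40.5 and 35.0 normalized CPM in miRcontrol, 105 and 107 with miR3124_mimic, 25.8 and 27.6 with miR200b_mimic, 25.3 and 24.0 with miR92b_inhibitor and 34.7 and 34.2 in the mixed group. Only the miR3124_mimic libraries lay above miRcontrol among these 4 groups. ITGB3 rose 2.80-fold there, 1.49 ± 0.06 (adjusted p = 3.39e-25), and fell in miR200b_mimic (-0.50 ± 0.08, adjusted p = 4.27e-07) and miR92b_inhibitor (-0.62 ± 0.08, adjusted p = 5.53e-09). ITGB3 is also a subunit of platelets and endothelium, so their markers are given beside it. PF4 and PPBP, of platelets, held at most 5 counts in any library, and the third platelet marker, GP1BA, was at 1.03 and 0.477 normalized CPM in miRcontrol, 2.53 and 3.00 with miR3124_mimic, 0.449 and 0.460 with miR200b_mimic, 1.17 and 0.766 with miR92b_inhibitor and 1.49 and 1.78 in the mixed group. The summed CPM of the 3 endothelial markers was 0.229 and 0.298 in miRcontrol, 4.78 and 3.06 with miR3124_mimic, 0.150 and 0.403 with miR200b_mimic, 0.292 and 0.602 with miR92b_inhibitor and 0.719 and 1.24 in the mixed group, with PECAM1 at no more than 4 counts. The part of these cells in the ITGB3 values was not tested. The annotation places another gene on the same strand, AC068234.1, over 51.57% of the exonic length of ITGB3, a symbol that the count tables do not list. ITGB1 was at 1366 and 1269 normalized CPM in miRcontrol, 1602 and 1635 with miR3124_mimic, 1142 and 1096 with miR200b_mimic, 1146 and 1091 with miR92b_inhibitor and 1188 and 1225 in the mixed group. It was highest in miR3124_mimic and lower than miRcontrol in the other groups. Its log2 fold changes were small, with 0.30 ± 0.04 (adjusted p = 8.08e-10) for miR3124_mimic, -0.24 ± 0.04 (adjusted p = 3.44e-07) for miR200b_mimic, -0.24 ± 0.04 (adjusted p = 5.71e-07) for miR92b_inhibitor and -0.13 ± 0.04 (adjusted p = 0.00286) for the mixed group. The mixed call was lost without mixed replicate 1 (log2 -0.10, adjusted p = 0.071) or miRcontrol replicate 1 (-0.07, 0.187). The pseudogene ITGB1P1 held between 163 and 280 counts per library, and how reads that fit both copies were counted was not stated, so the level of ITGB1 is uncertain.

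ITGAV and its remaining beta partners changed in different groups. ITGAV, the common partner of beta3, beta5, beta6 and beta8, rose in miR3124_mimic (0.43 ± 0.04, adjusted p = 1.67e-12) and fell in miR92b_inhibitor (-0.31 ± 0.04, adjusted p = 1.39e-07), and was -0.10 ± 0.04 and -0.09 ± 0.04 in miR200b_mimic and the mixed group (not called). ITGB5 rose in miR3124_mimic (0.83 ± 0.04, adjusted p = 1.24e-22), the mixed group (0.54 ± 0.04, adjusted p = 1.57e-15) and miR200b_mimic (0.42 ± 0.04, adjusted p = 7.82e-12), and in miR92b_inhibitor the difference was 0.00 ± 0.04. ITGB8, whose pair with alphaV activates latent TGF-beta, rose in miR3124_mimic (0.69 ± 0.07, adjusted p = 1.51e-11) and fell in miR200b_mimic (-0.49 ± 0.08, adjusted p = 1.94e-06), miR92b_inhibitor (-0.51 ± 0.08, adjusted p = 8.88e-07) and the mixed group (-0.33 ± 0.08, adjusted p = 3.98e-04). The last call was lost without mixed replicate 2 (log2 -0.22, adjusted p = 0.0579). ITGB6, an epithelial beta subunit that also activates latent TGF-beta, held 0 and 0 counts in miRcontrol, 0 and 1 with miR3124_mimic, 33 and 35 with miR200b_mimic, 0 and 2 with miR92b_inhibitor and 20 and 16 in the mixed group. It was thus near 0 in 3 groups and counted in every library of miR200b_mimic and the mixed group. Against a floor of 3 counts per library, 0.175 CPM on average in miRcontrol, it was at least 12.8-fold higher in miR200b_mimic and at least 5.61-fold higher in the mixed group. These folds are a description, since ITGB6 passed the minimum of 10 counts only through these groups. The gene AC092153.1 lies on the same strand over 20.61% of its exonic length.

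Among the collagen receptors, ITGA2 was by far the most abundant, and of these receptors it changed the most with the miR-200b-3p mimic and in the mixed group. ITGA2 (chr5:52989326-53094779), the alpha2 subunit of the epithelial collagen receptor, was at 86.0 and 79.9 normalized CPM in miRcontrol, 152 and 143 with miR3124_mimic, 315 and 318 with miR200b_mimic, 117 and 115 with miR92b_inhibitor and 313 and 341 in the mixed group. The libraries of the other 4 groups all lay above miRcontrol, and those of miR200b_mimic lay within the range of the mixed group. ITGA2 rose 3.82-fold in miR200b_mimic, a log2 fold change of 1.93 ± 0.05 (adjusted p = 5.23e-34), and 3.94-fold in the mixed group, 1.98 ± 0.05 (adjusted p = 1.88e-34). The changes of ITGA2 in miR3124_mimic (0.83 ± 0.05, adjusted p = 2.14e-19) and miR92b_inhibitor (0.48 ± 0.05, adjusted p = 1.06e-10) were smaller. ITGA11, a fibroblast collagen receptor, was low, at 1.03 and 1.31 normalized CPM in miRcontrol, 5.26 and 3.85 with miR3124_mimic, 1.20 and 1.09 with miR200b_mimic, 0.408 and 0.547 with miR92b_inhibitor and 1.99 and 1.88 in the mixed group. It was highest in miR3124_mimic and lowest in miR92b_inhibitor, and its miR200b_mimic libraries overlapped miRcontrol. ITGA11 rose by 1.94 ± 0.29 (adjusted p = 2.30e-07) in miR3124_mimic. Its fall in miR92b_inhibitor, -1.27 ± 0.43 (adjusted p = 0.0178), was lost without miRcontrol replicate 2 (log2 -1.09, adjusted p = 0.129) or miR92b_inhibitor replicate 1 (-1.08, 0.117). ITGA1, which lies 30.1 kb upstream of ITGA2 on chromosome 5 with no coding gene between them, was at 7.21 and 6.51 CPM in miRcontrol, 9.15 and 9.96 in miR3124_mimic and 4.03 and 5.42 in miR92b_inhibitor. It changed by 0.48 ± 0.15 (adjusted p = 0.00636) and -0.53 ± 0.17 (adjusted p = 0.00975) in these. Both calls of ITGA1 were lost with DESeq2 on all libraries, at 0.48 (adjusted p = 0.0635) and -0.54 (adjusted p = 0.0600). They were also lost when some libraries were left out. The rise was 0.48 with all libraries, 0.41 without miRcontrol replicate 2 (adjusted p = 0.0692) and 0.41 without miR3124_mimic replicate 2 (0.0768). The fall was -0.46 without miRcontrol replicate 1 (0.0969) and -0.34 without miR92b_inhibitor replicate 1 (0.202). ITGA10, a receptor of cartilage collagen, held between 6 and 22 counts per library and was called in none of the 4 comparisons, with log2 fold changes from -0.84 to 0.43.

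ITGA4 and ITGA9, related alpha subunits that bind VCAM1, fibronectin and tenascin, were near the limit of detection. ITGA4 was at 0.687 and 1.31 normalized CPM in miRcontrol, 1.09 and 1.47 with miR3124_mimic, 0.374 and 0.518 with miR200b_mimic, 0.934 and 0.438 with miR92b_inhibitor and 0.498 and 0.215 in the mixed group. It was called lower in the mixed group (log2 -1.47 ± 0.54), on 12 and 22 counts in miRcontrol and 9 and 4 in the mixed group. That call was lost with DESeq2 on all libraries (log2 -1.49, adjusted p = 0.0934). It was also lost without miRcontrol replicate 2 (log2 -0.94) or mixed replicate 2 (-0.99), and without mixed replicate 1 the log2 fold change was -2.17. These values are a description, since miRcontrol and miR3124_mimic were the only groups where both libraries of ITGA4 held 10 or more counts. ITGA9 held 12 and 0 counts in miRcontrol, 27 and 24 with miR3124_mimic, 4 and 1 with miR200b_mimic, 8 and 9 with miR92b_inhibitor and 14 and 5 in the mixed group. In CPM, ITGA9 was at 0.687 and 0 normalized CPM in miRcontrol, 1.84 and 1.36 with miR3124_mimic, 0.299 and 0.0575 with miR200b_mimic, 0.467 and 0.493 with miR92b_inhibitor and 0.774 and 0.269 in the mixed group. Its rise in miR3124_mimic was 2.16 ± 0.59, but it was 1.20 without miRcontrol replicate 2. Without replicate 1 the remaining control library held 0 counts and gives no fold change. With DESeq2 on all libraries the rise was 2.21 and was not called. These values are a description, since miR3124_mimic was the only group where both libraries of ITGA9 held 10 or more counts. Of the leukocyte subunits, ITGAE was at 8.41 and 9.07 CPM in miRcontrol with log2 fold changes from -0.34 to 0.02, and ITGAX held 0 and 9 counts in miRcontrol, 12 and 13 with miR3124_mimic, 1 and 1 with miR200b_mimic, 10 and 13 with miR92b_inhibitor and 3 and 5 in the mixed group. Neither was called in any of the 4 comparisons. ITGAL, ITGAM, ITGAD and ITGB2, which mark leukocytes, held at most 5 counts in any library. The summed CPM of the 6 leukocyte markers was 27.3 and 28.7 in miRcontrol, 36.2 and 36.7 with miR3124_mimic, 17.7 and 20.4 with miR200b_mimic, 40.1 and 42.2 with miR92b_inhibitor and 24.6 and 25.7 in the mixed group, nearly all of it CD68 except in miR3124_mimic, where CD14 was at 12.7 and 12.4. PTPRC, the pan-leukocyte marker CD45, held at most 2 counts.

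**Figure D4:**
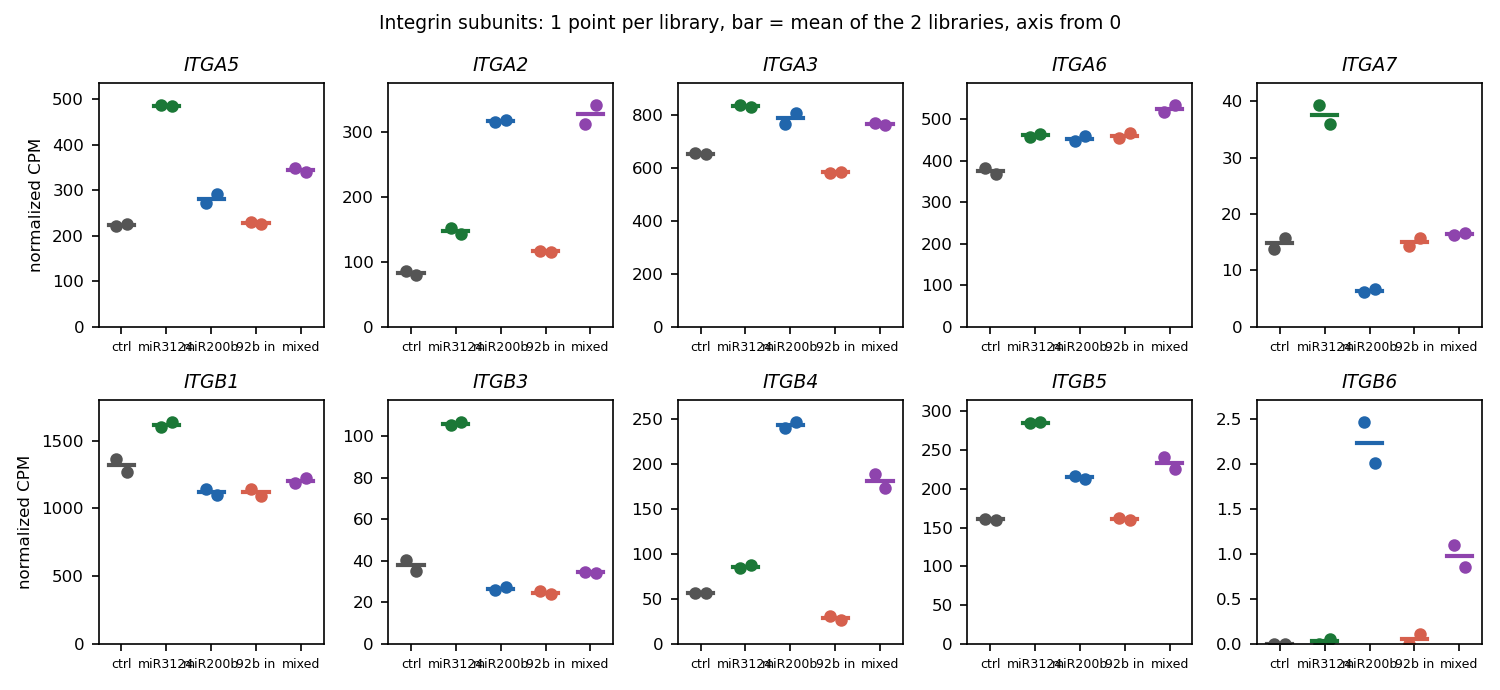
Normalized CPM of 10 integrin subunits in each library, with 1 point per library, a bar at the mean of each group and each axis from 0; ctrl is miRcontrol, miR3124 and miR200b are the mimics and 92b in is the miR-92b inhibitor. ITGA2, ITGB4 and ITGB6 stand highest in miR200b_mimic or the mixed group, and ITGA5, ITGA7, ITGB3 and ITGB5 in miR3124_mimic.

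Where a member was called in opposite directions against miRcontrol in 2 single transfections, the difference between these transfections is given as a size only, since this choice of members fixed its direction. Between miR3124_mimic and miR200b_mimic this held for 7 members. LAMB3 was lower in miR3124_mimic, with a difference of -2.10 ± 0.05 on the log2 scale. ITGA7 (2.55 ± 0.11), ITGB3 (1.99 ± 0.07), LAMB2 (1.25), ITGB8 (1.18), LAMC1 (0.98) and ITGB1 (0.53) were higher there. Between miR3124_mimic and miR92b_inhibitor it held for 11 members, with ITGA11 (3.22 ± 0.35), LAMA5 (2.34 ± 0.06), ITGB3 (2.10 ± 0.07) and ITGB4 (1.57 ± 0.06) apart by the most. ITGB8, ITGA1, ITGAV, LAMB2, ITGB1 and ITGA3 were also higher in miR3124_mimic, by 0.51 to 1.20, and LAMB3 (-0.71) was lower. Between miR200b_mimic and miR92b_inhibitor it held for ITGB4 (3.07 ± 0.06), LAMA4 (1.56 ± 0.12), LAMA5 (0.95 ± 0.07) and ITGA3 (0.43 ± 0.03), all higher in miR200b_mimic. Of these opposite calls, that of LAMA5 in miR200b_mimic and those of ITGA1 (both groups) and ITGA11 (miR92b_inhibitor) were lost when some single libraries were left out, as given beside each gene.

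The mixed group was then compared with each single transfection, as shown in the plot of the mixed group against each single transfection. Against miR3124_mimic, 6 members were higher (25.3% of all genes) and 18 lower (23.8% of all genes). The 6 hold ITGB6, and the 18 hold ITGA4, ITGA9 and ITGAX. Their part in these counts is a description, since they passed the minimum count through the groups where they were high. LAMB3 (2.07 ± 0.05, adjusted p = 1.45e-35), ITGA2 (1.15 ± 0.04, adjusted p = 2.19e-26) and ITGB4 (1.07 ± 0.05, adjusted p = 4.94e-23) were higher in the mixed group, and ITGB3 (-1.62 ± 0.06, adjusted p = 2.99e-26), ITGA7 (-1.19 ± 0.09, adjusted p = 1.75e-15), ITGB8 (-1.02 ± 0.07, adjusted p = 2.04e-16) and LAMA5 (-0.80 ± 0.05, adjusted p = 3.73e-17) were lower. Against miR200b_mimic, 11 were higher (18.2% of all genes) and 3 lower (20.4% of all genes). LAMA1 (1.53 ± 0.26, adjusted p = 3.37e-06), ITGA7 (1.36 ± 0.12, adjusted p = 1.22e-12), LAMA5 (0.60 ± 0.06, adjusted p = 2.50e-11) and LAMB2 (0.60 ± 0.05, adjusted p = 5.50e-13) were higher in the mixed group. ITGB4 (-0.43 ± 0.04, adjusted p = 6.17e-11) and LAMA3 (-0.20 ± 0.05, adjusted p = 0.00146) were lower. ITGB6 (-1.17 ± 0.40) is also counted as lower, but its value is a description, since it passed the minimum count only through these groups. For LAMB3 and ITGA2 the difference from miR200b_mimic was -0.02 ± 0.04 (adjusted p = 0.695) and 0.05 ± 0.04 (adjusted p = 0.398), which was not called. Against miR92b_inhibitor, 17 members were higher (19.7% of all genes) and 0 lower (19.9% of all genes) in edgeR, where 1 member, ITGAX, was lower at an unadjusted p under 0.05, and DESeq2 gave 0 at either. ITGB4 (2.64 ± 0.06, adjusted p = 1.49e-35), LAMA4 (1.66 ± 0.12, adjusted p = 1.88e-16), LAMA5 (1.55 ± 0.07, adjusted p = 1.76e-24) and LAMB3 (1.36 ± 0.04, adjusted p = 1.62e-29) were higher in the mixed group, and ITGA2 and ITGA11 were as well. The 17 higher against miR92b_inhibitor also hold ITGB6, a description for the same reason. The labels do not give how much of each agent the mixed group received, so dose and combination cannot be told apart.

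**Figure D5:**
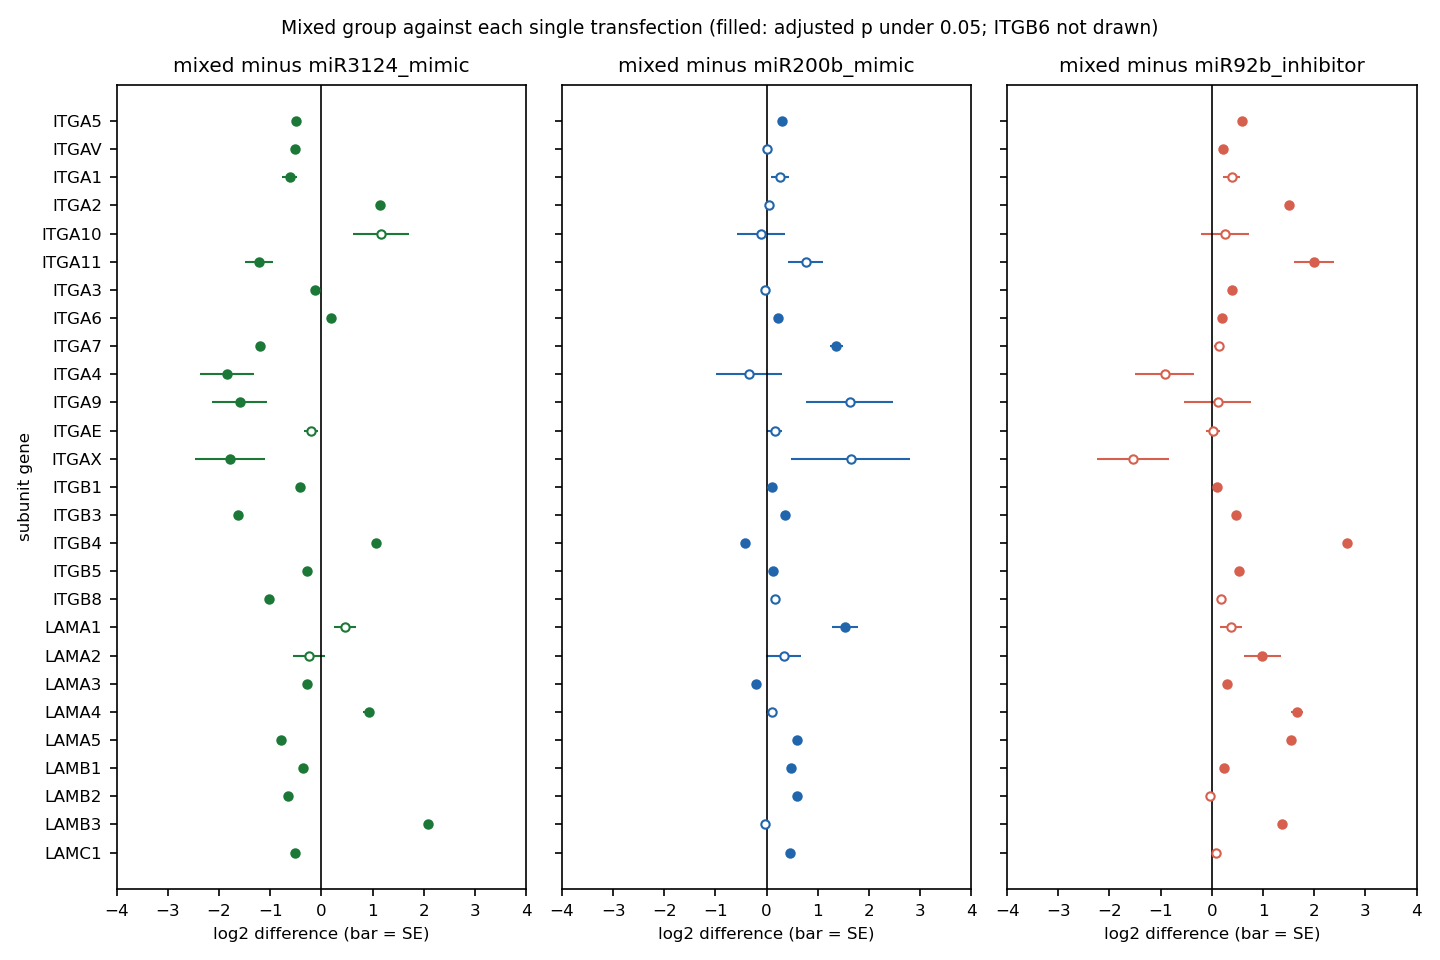
Log2 difference of 27 members between the mixed group and each single transfection, with bars for the SE and filled points where the adjusted p was under 0.05; ITGB6 is not drawn. LAMB3 lies near 2 against miR3124_mimic and near 0 against miR200b_mimic.

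Set beside the seed words shown above, the members with CAGTATT did not share a direction with the miR-200b-3p mimic. ITGB3 and LAMC1 fell (-0.50 and -0.43), ITGA2 rose (1.93), and ITGA1, ITGA9, ITGA10 and ITGA11 were not called (-0.40, -1.06, 0.43 and -0.04). LAMB3, ITGB4 and LAMB2, which also moved in that group, have no such word in the 3′UTR searched. Of the members with GTGCAAT, ITGAV, ITGB3 and ITGB8 fell with the miR-92b inhibitor (-0.31, -0.62 and -0.51), ITGA5 (0.03) and ITGA9 (0.45) were not called, and ITGB6 was at the floor in both groups. A word is a description of the sequence, not a measured site.

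The pattern of ITGB4 over the 5 group means of log2 CPM was most like that of LAMA4 (Pearson r = 0.967), ITGA2 (0.876) and ITGB6 (0.868), of which ITGB6 was at or near 0 in 3 of the 5 groups, so that its r rests on those values and on the pair of groups where it was counted. These r are descriptions over 5 groups that share the same libraries and control.

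The genes that work with the members were described from lists, which were chosen with earlier results of these data known. Among 17 tested basement membrane partners of laminin, 15 rose (25.7% of all genes) and 0 fell (25.3%) in miR3124_mimic, with a median log2 fold change of 0.84 beside 0.00 over all genes, and 6 of them passed a fold change of 2 (8.13% of all genes). COL7A1, the anchoring fibril collagen, rose by 1.61 ± 0.12, and NTN1, the laminin-related netrin 1, rose by 1.28 ± 0.22. The balance was the reverse in miR92b_inhibitor, where 10 fell (18.2% of all genes) and 0 rose (17.5%) and the median was -0.27, with NID2 (nidogen 2, -1.03 ± 0.34) and BCAM (a receptor of LAMA5, -0.62 ± 0.09) changed the most. In miR200b_mimic 5 rose (21.4% of all genes) and 6 fell (19.1%) with a median of 0.05, led by NID1 (nidogen 1, -0.93 ± 0.08) and COL7A1 (-0.90 ± 0.16), and in the mixed group 10 rose (21.5%) and 2 fell (21.1%) with a median of 0.34, led by COL7A1 (0.96 ± 0.12) and SPARC (a collagen-binding matrix protein, 0.75 ± 0.03).

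Of the 11 hemidesmosome and lateral partners, 3 rose (25.7% of all genes) and 5 fell (25.3%) with miR3124_mimic, and the median log2 fold change was -0.04. The miR-200b-3p mimic raised 3 (21.4% of all genes) and lowered 6 (19.1%), with a median of -0.15. With the miR-92b inhibitor 2 were higher (17.5%) and 5 lower (18.2%), with a median of -0.07, and in the mixed group 2 (21.5%) and 6 (21.1%), with a median of -0.13. The numbers that rose lay near the share over all genes, while the numbers that fell lay above it in each comparison. Of the 11, 0 passed a fold change of 2 in any comparison, beside 1.91% to 8.13% of all genes. These shares take no account of abundance. COL17A1, a hemidesmosome collagen, rose by 0.77 ± 0.16 in miR200b_mimic and 0.75 ± 0.16 in the mixed group. DST, a hemidesmosome plakin, fell by 0.43 ± 0.03 in miR200b_mimic. The tetraspanin CD82 rose by 0.91 ± 0.07 in miR3124_mimic, 0.98 ± 0.07 in miR92b_inhibitor and 0.98 ± 0.06 in the mixed group, while CD81 (-0.44 ± 0.04) fell in miR3124_mimic and CD151 (-0.51 ± 0.04), a partner of laminin-binding integrins, fell in miR92b_inhibitor. The hemidesmosome genes thus did not all follow ITGB4.

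Of the 25 tested integrin activators and adaptors, 9 rose (25.7% of all genes) and 11 fell (25.3%) with miR3124_mimic, and the log2 fold changes had a median of -0.07. The numbers were 9 (21.4%) and 7 (19.1%) for the miR-200b-3p mimic, with a median of 0.05, and 3 (17.5%) and 6 (18.2%) for the miR-92b inhibitor, with a median of -0.04. In the mixed group 3 were higher (21.5%) and 10 lower (21.1%), with a median of -0.05. ZYX (zyxin, a focal adhesion protein) fell by 1.43 ± 0.04 and LIMS2 by 1.11 ± 0.17 in miR3124_mimic. In miR200b_mimic PTK2B, a focal adhesion kinase, rose by 1.56 ± 0.10 and TLN2, which links integrins to actin, fell by 1.02 ± 0.06. In the mixed group PTK2B (1.34 ± 0.10) and FERMT1 (kindlin-1, an epithelial integrin activator, 0.87 ± 0.08) rose. TNS2 (-0.60 ± 0.10) and LIMS2 (-0.52 ± 0.16) fell in miR92b_inhibitor.

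Of the 15 tested integrin ligands, 8 rose (25.7% of all genes) and 3 fell (25.3%) with miR3124_mimic, and their median was 0.27 on the log2 scale. For the miR-200b-3p mimic 5 were higher (21.4%) and 6 lower (19.1%), with a median of -0.36, and for the miR-92b inhibitor 3 were higher (17.5%) and 6 lower (18.2%), with a median of -0.34. The mixed group gave 6 higher (21.5%) and 7 lower (21.1%), with a median of -0.13. CTGF, a matricellular ligand, rose by 1.66 ± 0.04 and VTN (vitronectin) by 1.63 ± 0.40 in miR3124_mimic. COL1A1 rose by 1.62 ± 0.10 in miR200b_mimic and fell by 0.90 ± 0.13 in miR92b_inhibitor, where TGFB2 fell by 0.70 ± 0.05. POSTN (periostin) fell by 1.45 ± 0.33 in miR200b_mimic and by 1.83 ± 0.33 in the mixed group, where TGFB3 fell by 1.11 ± 0.30. FN1 (fibronectin), the ligand of alpha5 beta1, was at 3181 and 3347 normalized CPM in miRcontrol, 3436 and 3330.3 with miR3124_mimic, 1444 and 1369 with miR200b_mimic, 2489.8 and 2368 with miR92b_inhibitor and 2026 and 1953 in the mixed group. It fell in miR200b_mimic (-1.21 ± 0.04), miR92b_inhibitor (-0.43 ± 0.03) and the mixed group (-0.71 ± 0.03), and with miR3124_mimic its difference was 0.05 ± 0.03 (adjusted p = 0.216).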

How the data were processed

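BEAS2B cells of 5 groups were measured by poly(A) mRNA-sequencing, with 2 libraries per group. The authors checked read quality with FastQC, removed adapter and poor reads with FASTX_Trimmer and BBMap, and aligned the reads with TopHat. GRCh38 is named in the submitters' processing notes, and the counting tool and annotation are not given in the sources used here. The deposited files hold raw counts of reads per gene symbol. Of the 58173 rows in each file, 5771 repeated an earlier symbol and were added to it, giving 52402 symbols.

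The counts were filtered with filterByExpr and scaled by the RLE method, and edgeR 4.0.16 (limma 3.58.1, R 4.3.3) gave quasi-likelihood tests over 14884 genes with Benjamini-Hochberg adjustment. The SE of a log2 fold change is its size divided by the square root of F. Per-kb levels used GENCODE v29 exonic lengths. The alternatives were TMM, scaling by library totals, DESeq2 1.42.0 (Wald test), no filter, at least 10 counts in every library, only the 2 groups compared, a replicate block and leaving out each library. The code was tested on simulated data. One member of the rule is not reported here. The others are named, with every library given for those past a fold change of 2 and adjusted p under 0.05 and for the most abundant alpha integrin, beta integrin and laminin alpha, beta and gamma chain per length in miRcontrol; of each related list, the 2 most changed called genes with a mean of at least 1 CPM are named per comparison. The members and lists were chosen with earlier results of these data known.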

Additional observations from a re-analysis of the deposited data

Results flagged for a closer look

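In 6 cases a member was called in opposite directions in 2 single transfections and these differed by 2 or more on the log2 scale. The difference between the transfections is given as a size, since the choice of these members fixed its direction. Between miR3124_mimic and miR200b_mimic the log2 differences were 2.55 for ITGA7 and -2.10 for LAMB3. Between miR3124_mimic and miR92b_inhibitor they were 3.22 for ITGA11, 2.10 for ITGB3 and 2.34 for LAMA5. Between miR200b_mimic and miR92b_inhibitor the difference was 3.07 for ITGB4. Each group held 2 libraries that did not overlap between the groups. The ITGA11 value rests on few counts, 77 and 68 in miR3124_mimic and 7 and 10 in miR92b_inhibitor.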

How the results depend on the processing

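Of 165 counts of called members recomputed under the alternatives, 158 stayed within 1.5 times their value, and none of the 793 recomputed log2 fold changes of called members changed sign, while 25 lost their call. With at least 10 counts in every library fewer genes were tested. The members past a fold change of 2 were then 5 in miR3124_mimic, 1 in miR92b_inhibitor and 4 in the mixed group. In miR200b_mimic, ITGB6 and LAMA2 were past a fold change of 2 in the main fit but were left out under this filter. The members called lower in the mixed group were 3 with DESeq2 and 3 to 5 when 1 library was left out, in which the lone library of its group is assumed to vary like the other groups. The lost calls were in 2 comparisons of ITGA1 and 1 each of ITGA4, ITGA9, ITGA11, ITGB1, ITGB8, LAMA2, LAMA3 and LAMA5. DESeq2 with all libraries ended the calls of ITGA1 (both), ITGA4, ITGA9, LAMA2, LAMA3 and LAMA5, with log2 fold changes close to those of edgeR. Libraries with the same replicate number did not deviate together (correlations of -0.0625 to 0.0613 between groups, over 10419 genes), and with the replicate block 21 members were higher in miR3124_mimic and 9 passed a fold change of 2, with the other counts as they were. TMM or library totals moved the median of all genes by under 0.1 on the log2 scale. Depth limits the low members, as the SE of the log2 fold change in miR3124_mimic was 0.59 for ITGA9 and 0.04 for ITGB1.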
